A study of Mus musculus with 21 samples.

Results

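The Hox genes are the homeobox genes of the 4 mammalian clusters HoxA, HoxB, HoxC and HoxD. They were chosen by name, as every row of the deposited expression table whose gene symbol is Hox followed by a cluster letter and a paralogue number, without antisense transcripts. This gave 39 of 22135 genes, with 11 in HoxA on chromosome 6, 10 in HoxB on chromosome 11, 9 in HoxC on chromosome 15 and 9 in HoxD on chromosome 2. RNA-seq was made from mouse primary cells in 7 groups of 3 libraries. The groups were peritubular myoid (PTM) cells, the contractile cells that wrap the seminiferous tubules, then Sertoli cells, Leydig cells and germ cells (Germ) of the testis, and vascular (VSMC), intestinal (ISMC) and tracheal (TSMC) smooth muscle cells. All groups were labelled as C57BL/6J cells kept in DMEM/F12 medium with fetal bovine serum and given no treatment, and the labels give no age. The testicular cells were isolated by cited protocols, whereas the smooth muscle-like cells came from a commercial supplier, so that supplier and tissue cannot be told apart in any comparison between these sets. The labels do not say whether the libraries of a group came from separate animals or cultures, so that p-values measure only the spread between libraries, which may be technical.

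Hox genes encode transcription factors that give cells their position along the head-to-tail axis of the embryo. Within a cluster, genes with low paralogue numbers lie at the 3′ end and are used earlier and more anteriorly than genes with high numbers, and genes with the same number in different clusters descend from one ancestral gene. Cells taken from adult tissues often keep the Hox pattern of their site of origin. The proteins bind DNA together with cofactors of the TALE class (Pbx, Meis and Pknox), retinoic acid and the caudal factors induce the clusters, and the Polycomb and Trithorax groups keep their genes off or on.

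Values are FPKM, fragments scaled by transcript length and by the mapped fragments of the library, so that levels may be set beside each other across genes. From the spacing of low values, the libraries were inferred to hold 20200000 to 22300000 fragments, at which 1 FPKM over a 2000-base transcript is about 39 fragments. The cell labels were checked against marker genes. Germ cell markers summed to 10702 to 11324 FPKM in Germ and to at most 12.6 FPKM elsewhere. The smooth muscle markers were higher in the libraries labelled Sertoli (8094 to 11271 FPKM) than in PTM (2986 to 3446 FPKM), and Leydig cell markers reached 2393 to 5016 FPKM in PTM, beside 1165 to 7270 FPKM in Leydig. Of the 6 Sertoli cell markers, 5 reached 1 FPKM in every Sertoli library, but so did 5 in PTM and 4 in Leydig. Amh was under 1 FPKM in every library of all groups. Of the 6 Leydig cell markers, 5 reached 1 FPKM in every Leydig library, but so did 5 in PTM and 5 in Sertoli. These counts therefore do not separate the 3 groups. Cyp17a1, a Leydig cell enzyme, did not exceed 0.12 FPKM in Leydig. Sertoli cell markers summed to 293, 974 and 428 FPKM in the PTM libraries and to 388, 608 and 343 FPKM in the Sertoli libraries, the second library being the highest of each group. Cldn11, a tight junction gene of Sertoli cells, was at 105, 481 and 180 FPKM in PTM and 129, 233 and 110.2 in Sertoli. The 3 testicular somatic groups are therefore called by their labels, without a claim to their purity. The second PTM library stood apart from the other two PTM libraries and the second Sertoli library from the other two Sertoli libraries in Hox levels as well. Leydig cell markers summed to 4943, 2393 and 5016 FPKM in the PTM libraries, the second being the lowest. Calls that changed without the second PTM or the second Sertoli library are given with each comparison. The part of the Sertoli and Leydig cell markers in them was not tested. In bulk RNA, fewer cells of a type and less RNA per cell cannot be told apart.

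The homeobox, which encodes the DNA-binding homeodomain, is what all members share by descent. It is shown for Hoxb9, which was high in smooth muscle and low in PTM, and for its paralogue Hoxc9, whose ranges in PTM, VSMC and ISMC overlapped. The 180 bases were read from GENCODE vM21 transcripts, and capitals mark the 18 bases that encode the core of the recognition helix.
Hoxb9: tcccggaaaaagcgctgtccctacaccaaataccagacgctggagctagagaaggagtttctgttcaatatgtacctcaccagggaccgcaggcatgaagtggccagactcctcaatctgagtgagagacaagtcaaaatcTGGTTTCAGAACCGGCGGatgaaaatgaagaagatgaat
Hoxc9: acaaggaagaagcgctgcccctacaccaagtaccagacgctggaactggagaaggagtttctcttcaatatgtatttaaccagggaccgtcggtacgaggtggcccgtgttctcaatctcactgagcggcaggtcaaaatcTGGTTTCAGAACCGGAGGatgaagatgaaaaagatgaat
A homeobox was found for all 39 genes. Between genes of the same paralogue number, the homeoboxes were identical at 67.2% to 93.9% of bases (median 80.6%, 42 pairs). Between genes of different numbers the range was 46.1% to 88.9% (median 60.6%, 699 pairs). The longest run shared by any pair was 52 bases, so that no read from inside a homeobox could match another member over a longer stretch without a mismatch.

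The groups differed in the Hox genes they held. Of all 19285 genes with FPKM values, 10160 to 11536 reached 1 FPKM in each library. The count below is stricter, as it asks for every library of a group. A gene was counted as detected in a group if it reached 1 FPKM in every library of the group, which 23 of the 39 genes did in VSMC and in ISMC, 14 in TSMC, 12 in PTM and in Leydig, 11 in Sertoli and 3 in Germ. No gene was detected in all 7 groups, and Hoxb2, which acts in hindbrain patterning, was the only one detected in the 6 groups other than Germ. In PTM the detected genes were Hoxb2, Hoxb9, Hoxc4, Hoxc6, Hoxc8, Hoxc9, Hoxc10, Hoxd3, Hoxd4, Hoxd8, Hoxd9 and Hoxd10, with none from HoxA. VSMC and ISMC listed the same 23 names, among them Hoxa2 to Hoxa7, Hoxa9 and Hoxa10, all of Hoxb2 to Hoxb9, Hoxc4, Hoxc5, Hoxc6, Hoxc8 and Hoxc9, and Hoxd8. The genes of TSMC included Hoxa2 to Hoxa5, Hoxa7 and Hoxb2 to Hoxb9, with none from HoxC or HoxD.

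**Figure D1:**
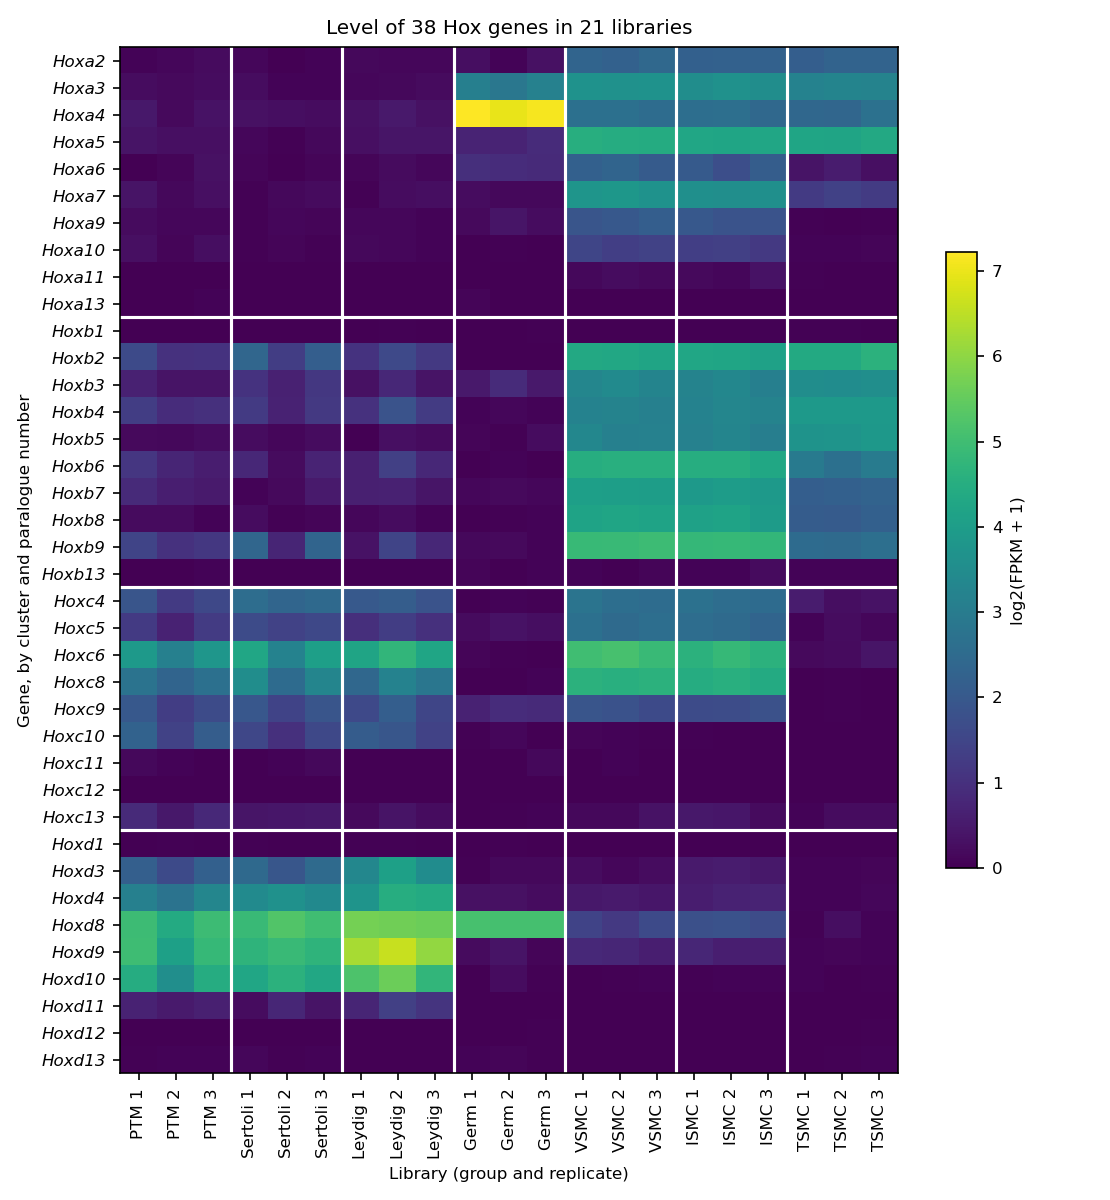
Level of 38 Hox genes (rows, by cluster and paralogue number) in each of the 21 libraries (columns, by group) as log2(FPKM + 1), from dark at 0 to light. HoxD genes 3 to 10 are high in PTM, Sertoli and Leydig, HoxA and HoxB genes in VSMC, ISMC and TSMC, and Hoxa4 in Germ.

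The clusters divided the groups. The summed HoxD level was 80.5 ± 21.4 FPKM in PTM, 93.7 ± 10.1 in Sertoli and 196 ± 31.8 in Leydig (mean ± SD, n = 3 here and below). In VSMC it was 2.97 ± 0.34, in ISMC 4 ± 0.21 and in TSMC 0.34 ± 0.0945 FPKM. HoxD therefore made up 70.7% of all Hox FPKM in PTM, 68.7% in Sertoli and 82.0% in Leydig, but 1.12% in VSMC. HoxB was higher in the smooth muscle groups, with 128 ± 1.42 FPKM in VSMC, 121 ± 6.23 in ISMC and 76.8 ± 4.38 in TSMC, against 5.93 ± 2.01 in PTM. HoxA summed to 66.5 ± 1.03, 58.9 ± 0.31 and 39.1 ± 1.68 FPKM in VSMC, ISMC and TSMC and to 1.9 ± 0.45 in PTM. HoxC was shared by both sets, at 25.5 ± 7.17 FPKM in PTM, 33.2 ± 10 in Sertoli, 36 ± 8.1 in Leydig, 67.3 ± 2.2 in VSMC and 58.6 ± 3.33 in ISMC, and was at 0.79 ± 0.0808 FPKM in TSMC. All Hox genes together made up 0.0155% to 0.0625% of the FPKM of a library.

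**Figure D2:**
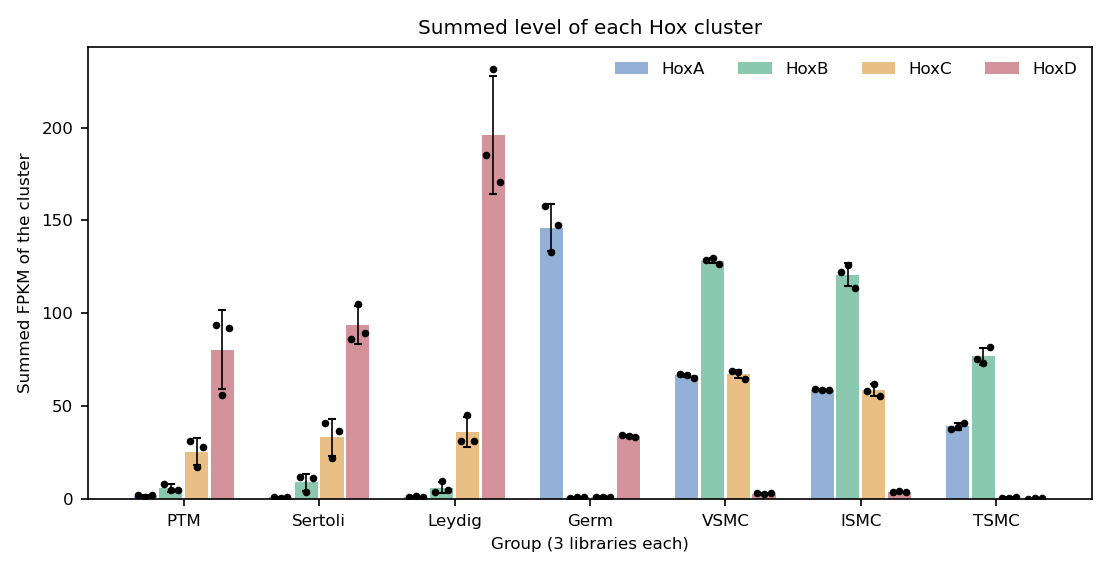
Summed FPKM of the genes of each Hox cluster in the 7 groups. Bars are means of 3 libraries, error bars are SD and points are libraries. HoxD is the tallest bar in PTM, Sertoli and Leydig, HoxB in VSMC, ISMC and TSMC, and HoxA in Germ.

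None of the genes with paralogue numbers 11 to 13 reached the level needed for a test. Of the 39 members, 11 did not pass the filter used for testing (1 FPKM in at least 3 libraries), and 10 of these, Hoxa11, Hoxa13, Hoxb1, Hoxb13, Hoxc11, Hoxc12, Hoxc13, Hoxd1, Hoxd12 and Hoxd13, stayed below 1 FPKM in every library. Hoxc12 was listed at 0 in all 21 libraries. Hoxd11, which acts in kidney and forelimb development, was at 0.67, 1.56 and 1.11 FPKM in the Leydig libraries and at 0.6, 0.43 and 0.54 in PTM, and did not exceed 0.01 FPKM in VSMC, ISMC and TSMC. Hoxc13, a hair follicle regulator, was at 0.81, 0.37 and 0.77 FPKM in PTM. The tested members therefore number 28, and counts below refer to these, which passed because they were high in at least one group.

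PTM and the 3 smooth muscle groups were compared to ask how libraries labelled as myoid cells differ from those labelled as smooth muscle of other organs. Genes were called with limma on log2(FPKM + 1), at a Benjamini-Hochberg adjusted p below 0.05 over 14444 genes and a log2 fold change of at least 1 in either direction. Against VSMC, 6 of the 28 tested Hox genes were higher in PTM and 21 lower, where 12.6% of all tested genes were called higher and 6.37% lower, 19% in all. The median log2 fold change was -2.04 over the Hox genes and 0.19 over all tested genes. Against ISMC the counts were again 6 higher and 21 lower, with 10.7% and 7% of all tested genes (17.7% in all) and medians of -1.86 and 0.14. Against TSMC, 10 were higher and 13 lower, with 11.3% and 7.2% of all tested genes (18.5% in all) and medians of -0.63 and 0.13. These 3 comparisons share the PTM libraries.

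The genes higher in PTM than in VSMC were Hoxd10 (4.14), Hoxd9 (3.89), Hoxd8 (3.35), Hoxd4 (2.59), Hoxc10 (1.87) and Hoxd3 (1.81), with log2 fold changes in parentheses. Hoxd10, a regulator of lumbar motor neurons and the hindlimb, was at 21.3, 10.9 and 21.2 FPKM in the PTM libraries and at 0, 0.03 and 0.06 in VSMC, 0.03, 0.06 and 0.06 in ISMC and 0.06, 0 and 0.03 in TSMC. The PTM libraries were all above every smooth muscle library (log2 fold change 4.14, SE 0.21, adjusted p = 2.43e-11 against VSMC). Hoxd9, which acts with its paralogues in the lumbar skeleton and the mammary gland, was at 30.3, 16.2 and 27.6 FPKM in PTM and at 0.79, 0.72 and 0.53 in VSMC, 0.7, 0.51 and 0.51 in ISMC and 0.05, 0.07 and 0.05 in TSMC. Here too the groups did not overlap (log2 fold change 3.89, SE 0.17, adjusted p = 5.62e-12 against VSMC). Hoxd8 was at 29.9, 20.4 and 30.1 FPKM in PTM, 1.75, 1.3 and 2.1 in VSMC, 2.37, 2.52 and 2.19 in ISMC and 0.03, 0.21 and 0.06 in TSMC. It was the one HoxD gene detected in VSMC and ISMC, and the PTM libraries still stood above them all (log2 fold change 3.35, SE 0.13, adjusted p = 1.28e-12 against VSMC). Hoxc10, a lumbar and hindlimb gene, was at 3.78, 1.69 and 3.4 FPKM in PTM and at most 0.08 FPKM in any smooth muscle library.

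The genes with the lowest fold changes in PTM against VSMC were Hoxa5 (-4.16), Hoxb8 (-4.03), Hoxb6 (-3.72), Hoxb9 (-3.66), Hoxa7 (-3.48), Hoxa3 (-3.46), Hoxb7 (-3.39) and Hoxb2 (-3.06). The annotated span of Hoxa3 holds Hoxa4, Hoxa5 and Hoxa6 on the same strand, so that its share of their reads is uncertain, here and against TSMC. Hoxa5, needed for the trachea and lung in mice, was at 0.29, 0.23 and 0.23 FPKM in PTM, 22.2, 21.2 and 20.8 in VSMC, 18.2, 18.1 and 18.2 in ISMC and 18.1, 17.6 and 19.7 in TSMC. All smooth muscle libraries lay above all PTM libraries (log2 fold change -4.16, SE 0.07, adjusted p = 4.62e-18 against VSMC; log2 fold change -3.96, SE 0.07, adjusted p = 5.73e-18 against TSMC). Hoxb8, known from haematopoietic cells and microglia, was at 0.16, 0.16 and 0.06 FPKM in PTM and at 17.2, 17.8 and 17.2 in VSMC. In TSMC it was at 3.28, 3.24 and 3.63 FPKM, between these levels, with no overlap (log2 fold change -4.03, SE 0.08, adjusted p = 4.11e-17 against VSMC). Hoxb2 was at 2.08, 1.03 and 1.09 FPKM in PTM and at 19.7, 19 and 17.5, 18.4, 17.8 and 16.5 and 20, 19.9 and 23.9 in VSMC, ISMC and TSMC. Hoxc9 was the one tested member not called against VSMC or ISMC. It was at 3, 1.47 and 2.13 FPKM in PTM, 2.77, 2.54 and 2.08 in VSMC and 2.14, 2.23 and 2.44 in ISMC, and these ranges overlap (log2 fold change -0.14, SE 0.18, adjusted p = 0.529 against VSMC). Apart from Hoxc10, the other tested HoxC genes were lower in PTM than in VSMC, namely Hoxc8 (-2.02), Hoxc5 (-1.53), Hoxc6 (-1.39) and Hoxc4 (-1.08). Without the second PTM library Hoxc4 lost its call against VSMC (log2 fold change -0.91) and against ISMC (-0.86), and Hoxc6 lost it against ISMC (-0.87). Without the first ISMC library Hoxc4 was not called against ISMC either (-0.99).

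Against TSMC, the HoxC genes that were called were higher in PTM. The genes higher in PTM were Hoxd8 (4.64), Hoxd9 (4.56), Hoxd10 (4.14), Hoxc6 (3.34), Hoxd4 (2.97), Hoxc8 (2.58), Hoxc10 (1.94) and Hoxd3 (1.92), followed by Hoxc9 and Hoxc4. Hoxc4 lost its call after quantile normalization (0.85) and after median scaling (0.97). Without the second PTM library 11 genes were called higher and 12 lower, with Hoxc5 gaining a call (from 0.92 to 1.1) and Hoxa7 losing one (from -1.02 to -0.96). Hoxa7 also lost its call without the second TSMC library (-0.97). Hoxc6, a gene of the thoracic region, was at 13.7, 7.91 and 12.8 FPKM in PTM and at 0.13, 0.16 and 0.32 in TSMC, while VSMC held 31.1, 33.4 and 28.4. PTM therefore lay between the 2 smooth muscle groups without overlap with either. The lowest fold changes in PTM against TSMC were those of Hoxa5 (-3.96), Hoxb5 (-3.58), Hoxb2 (-3.24), Hoxb3 (-3.08), Hoxa3 (-3.01), Hoxb4 (-2.83), Hoxa4 (-2.16) and Hoxa2 (-2.11). Macrophage markers summed to 206 to 232 FPKM in VSMC, 416 to 582 in ISMC, 65.9 to 109 in PTM and 8.9 to 10.7 in TSMC, and endothelial markers to 79.5 to 81.4, 70.2 to 74.2, 14.7 to 30.7 and 8.2 to 9.8 FPKM. Their part in these results was not tested.

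**Figure D3:**
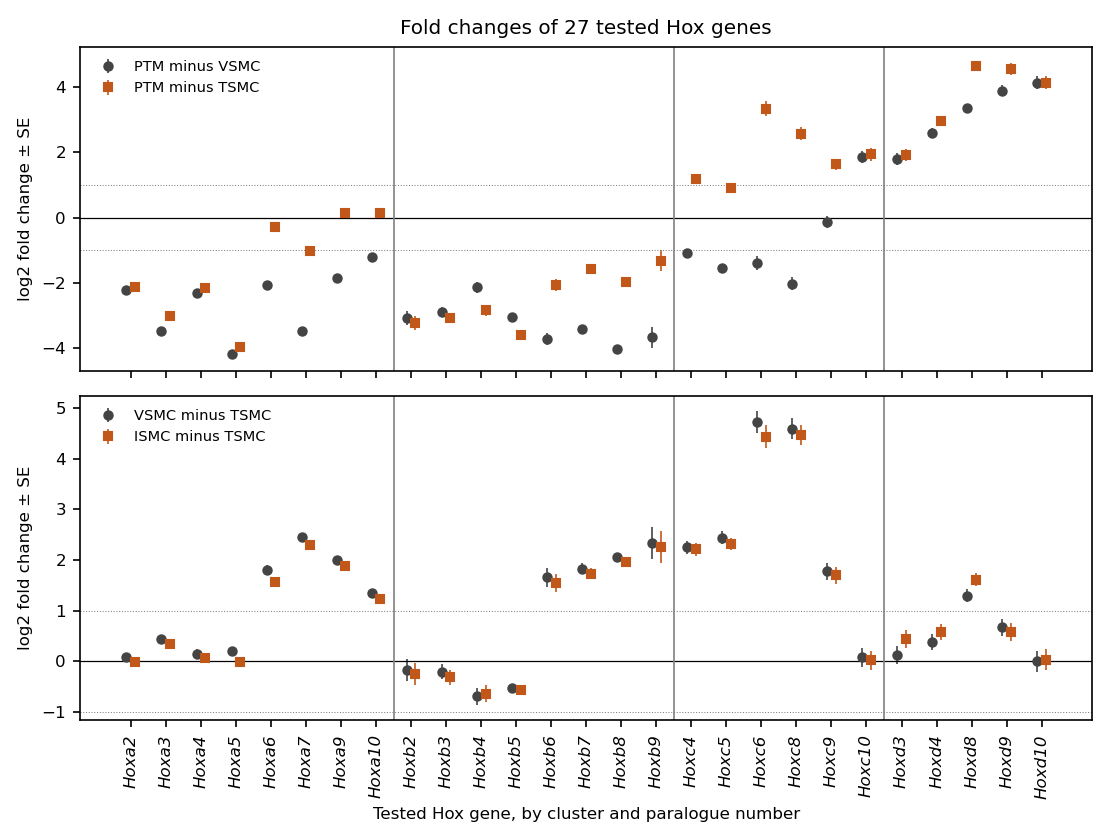
Log2 fold changes with SE (vertical axis) of 27 tested Hox genes, by cluster and paralogue number (horizontal axis), in 4 comparisons. Dotted lines mark the minimum fold change of 1 in either direction. Against VSMC and TSMC, PTM was higher in the HoxD genes and lower in most HoxA and HoxB genes, and VSMC was above TSMC in Hoxc4, Hoxc5, Hoxc6, Hoxc8 and Hoxc9.

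Promoters are shown for 2 genes that were high in PTM and low in smooth muscle (Hoxd10 and Hoxd8). Also shown are 2 genes with the reverse order (Hoxa5 and Hoxb8). The sequences are from RefSeq on GRCm38.p6, 300 bases around the annotated start and in the direction of transcription. RefSeq's table held 24 promoters of 22 of the 39 genes. Capitals mark matches on either strand to 5 motifs. These were the CCAAT box, the core promoter element TATAAA and AGGTCA, a single half-site of nuclear receptors, including those of retinoic acid. The others were the Pbx and Hox composite site TGATTNAT, and TTTATNG, a site of posterior Hox and caudal factors. The reverse complement of TATAAA can overlap TTTATNG, as it does in Hoxb8.
Hoxd10, chr2:74691641-74691940 (+ strand): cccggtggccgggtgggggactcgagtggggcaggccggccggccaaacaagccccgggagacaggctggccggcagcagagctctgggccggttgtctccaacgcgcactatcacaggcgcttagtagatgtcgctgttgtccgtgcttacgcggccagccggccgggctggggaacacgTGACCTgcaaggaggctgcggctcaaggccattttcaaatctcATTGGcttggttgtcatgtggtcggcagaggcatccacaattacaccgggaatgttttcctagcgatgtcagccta
Hoxd8, chr2:74704365-74704664 (+ strand): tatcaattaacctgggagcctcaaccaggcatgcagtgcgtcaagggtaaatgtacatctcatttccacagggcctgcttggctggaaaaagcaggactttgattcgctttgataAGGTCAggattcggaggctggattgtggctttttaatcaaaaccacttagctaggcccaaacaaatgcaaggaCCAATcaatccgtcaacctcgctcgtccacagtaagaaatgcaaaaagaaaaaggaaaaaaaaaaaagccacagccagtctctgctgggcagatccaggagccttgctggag
Hoxa5, chr6:52204538-52204837 (- strand): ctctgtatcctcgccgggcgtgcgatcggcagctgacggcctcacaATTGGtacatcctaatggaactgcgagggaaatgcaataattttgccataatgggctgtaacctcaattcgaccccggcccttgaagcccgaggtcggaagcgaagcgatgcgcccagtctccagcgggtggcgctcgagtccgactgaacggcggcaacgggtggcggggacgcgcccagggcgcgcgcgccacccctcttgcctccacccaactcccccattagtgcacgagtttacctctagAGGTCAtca
Hoxb8, chr11:96281655-96281954 (+ strand): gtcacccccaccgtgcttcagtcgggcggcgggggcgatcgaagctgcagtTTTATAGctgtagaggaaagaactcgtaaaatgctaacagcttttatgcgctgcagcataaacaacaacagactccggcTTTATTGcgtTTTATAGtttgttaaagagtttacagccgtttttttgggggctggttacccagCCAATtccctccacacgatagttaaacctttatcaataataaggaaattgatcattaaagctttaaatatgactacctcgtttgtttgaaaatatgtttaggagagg
CCAAT matched 15 of the 24 Hox promoters and 37.41% of 32851 promoters in the table. AGGTCA matched 7 Hox promoters and 16.26% of all, and it occurs in Hoxd10, Hoxd8 and Hoxa5, that is on both sides of the contrast. TATAAA matched 4 and 13.62% of all. TTTATNG matched 2, Hoxd4 and Hoxb8, and 10.91% of all, and TGATTNAT matched 2, Hoxd11 and Hoxa2, and 3.22% of all. The Hox promoters had a median of 14 CpG dinucleotides and 57.65% GC, against 7 and 52.7% over all promoters. Matches are letters in a window, and none was tied to binding here.

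The smooth muscle groups were compared with each other to ask how far Hox levels follow the organ of origin. VSMC and ISMC did not differ in any called Hox gene, where 0.831% of all tested genes were called, all of them lower in VSMC. In limma 4 of the 28 had an unadjusted p below 0.05, 3 of them higher in VSMC, where 5.64% of all tested genes had one. The smallest adjusted p of a Hox gene was 0.148. Log2 fold changes of the Hox genes ran from -0.32 to 0.29. Their median was 0.1, against -0.03 over all tested genes. All Hox genes together summed to 260 to 268 FPKM in VSMC and 232 to 251 in ISMC, a small difference without overlap. Across all genes, the libraries of these groups were also close, with a Pearson r of 0.993 across genes, which are not independent replicates. With TSMC, r was 0.972 to 0.974 for VSMC and 0.975 to 0.977 for ISMC. Likeness of VSMC and ISMC in Hox genes therefore cannot be told apart from likeness of these libraries as a whole. With a pseudocount of 0.1, Hoxd3 was called lower in VSMC (log2 fold change -1.1).

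In TSMC the HoxC genes and the 5′ genes of HoxA were near 0. Against TSMC, 14 of the 28 tested genes were higher in VSMC and 0 lower, where 2.1% of all tested genes were called higher and 2.48% lower (4.58% in all). For the Hox genes the median log2 fold change was 0.98, against -0.04 over all tested genes. ISMC against TSMC gave 14 higher and 0 lower, where 2.73% and 1.43% of all tested genes were called (4.17% in all), and medians of 0.9 and -0.01. The highest fold changes in VSMC against TSMC were those of Hoxc6 (4.73), Hoxc8 (4.6), Hoxa7 (2.46), Hoxc5 (2.44), Hoxb9 (2.34), Hoxc4 (2.25), Hoxb8 (2.07) and Hoxa9 (2). The highest in ISMC against TSMC were those of Hoxc8 (4.47), Hoxc6 (4.44), Hoxc5 (2.32), Hoxa7 (2.29), Hoxb9 (2.26), Hoxc4 (2.21), Hoxb8 (1.96) and Hoxa9 (1.87). Both comparisons share the TSMC libraries. Hoxc8, a gene of the thoracic vertebrae and motor neurons, was at 23.7, 22.4 and 24 FPKM in VSMC, 21.2, 22.4 and 20.4 in ISMC and 0, 0.02 and 0 in TSMC. Every VSMC and ISMC library was above 20 FPKM and every TSMC library at or near 0. Hoxa7, a vertebral patterning gene, was at 12.6, 13.2 and 11.7 FPKM in VSMC and 1.34, 1.63 and 1.39 in TSMC, with no overlap. Hoxa6, next to it on the 3′ side, was also called higher in VSMC (log2 fold change 1.8, SE 0.1, adjusted p = 1.89e-10). Hoxa5, further 3′, was at 22.2, 21.2 and 20.8 in VSMC and 18.1, 17.6 and 19.7 in TSMC and was not called (log2 fold change 0.2, SE 0.07, adjusted p = 0.0435).

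In HoxB the genes on the 5′ side differed between these groups. Hoxb6, Hoxb7, Hoxb8 and Hoxb9 were called higher in VSMC than in TSMC, while Hoxb2, Hoxb3, Hoxb4 and Hoxb5 were not called. Hoxb9, a gene of the rib cage, was at 27.8, 28.6 and 29.8 FPKM in VSMC and 4.78, 4.63 and 5.16 in TSMC, with no overlap (log2 fold change 2.34, SE 0.32, adjusted p = 2.97e-05). Hoxb4, known for expanding haematopoietic stem cells, was at 8.27, 8.34 and 7.91 FPKM in VSMC, 8.24, 8.89 and 8.4 in ISMC and 14, 13.8 and 13.8 in TSMC. The TSMC libraries were the higher ones, by less than the minimum fold change (log2 fold change -0.7, SE 0.17, adjusted p = 0.00618). Hoxb5 had the same order (log2 fold change -0.54, SE 0.08, adjusted p = 1.48e-04). The macrophage and endothelial markers given above also differed between TSMC and the other smooth muscle groups, and their part was not tested.

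Among the testicular somatic groups, the comparisons ask how libraries with these labels differ. All 5 smooth muscle markers were called lower in PTM than in Sertoli, so that the labels are not read as pure myoid and Sertoli cells. Across all genes, the PTM and Sertoli libraries had a Pearson r of 0.951 to 0.968. Likeness in Hox genes cannot be told apart from likeness of these libraries as a whole. Between PTM and Sertoli no Hox gene was called, where 6.06% of all tested genes were (3.56% higher and 2.51% lower). In limma 11 of the 28 had an unadjusted p below 0.05, where 39.4% of all tested genes had one. An adjusted p below 0.05 without the minimum fold change was found for 10 of the 28, where 29% of all tested genes had one. The largest difference was that of Hoxc4, at 2.75, 1.33 and 1.98 FPKM in PTM and 5.03, 4.08 and 4.55 in Sertoli, with every Sertoli library above every PTM library (log2 fold change -0.9, SE 0.13, adjusted p = 6.87e-05). The call of Hoxb9 turned on 1 library. Hoxb9 was at 4.19, 0.68 and 3.97 FPKM in Sertoli and 1.8, 1.05 and 1.27 in PTM, and the second Sertoli library was the lowest of the 6. Without that library the log2 fold change went from -0.58 to -1.11 and Hoxb9 was called lower in PTM (adjusted p = 0.000611), as was Hoxb2 (-1.03). Without the first PTM library Hoxc4 was called lower in PTM (-1.07). Without the second library of both groups, an alternative chosen after seeing the data, 1 gene was called, Hoxb9 (-1.01).

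Leydig libraries held more HoxD RNA. Against Leydig, 4 of the 28 tested genes were lower in PTM and 0 higher, where 4.57% of all tested genes were called lower and 6.53% higher (11.1% in all). Hoxd9 was at 30.3, 16.2 and 27.6 FPKM in PTM and 75.7, 96.3 and 65.6 in Leydig, with no overlap (log2 fold change -1.67, SE 0.17, adjusted p = 6.72e-07). Hoxd3, which shapes the first cervical vertebrae, was at 3.56, 2.05 and 3.63 FPKM in PTM and 9.12, 16.2 and 10.3 in Leydig, again with no overlap (log2 fold change -1.64, SE 0.18, adjusted p = 1.12e-06). Hoxd4 was at 7.85, 5.67 and 8.97 FPKM in PTM and 12.4, 21.4 and 20.1 in Leydig, and all Leydig libraries were the higher ones (log2 fold change -1.14, SE 0.16, adjusted p = 1.29e-05). The annotated span of Hoxd3 holds Hoxd4 on the same strand, so that the assignment of their shared reads is uncertain. Hoxd10 was at 21.3, 10.9 and 21.2 FPKM in PTM and 36, 47.4 and 26 in Leydig, the groups just apart (log2 fold change -1.01, SE 0.21, adjusted p = 5.99e-04). Without the second PTM library the counts fell to 2, with Hoxd9 and Hoxd3 still called and Hoxd4 (log2 fold change -0.98) and Hoxd10 (-0.71) not. Hoxd10 also lost its call without the first (-1) or the second (-0.8) Leydig library.

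Sertoli against Leydig gave 2 genes lower in Sertoli and 0 higher, where 6.56% of all tested genes were called lower and 6.32% higher (12.9% in all). These were Hoxd9, at 24.8, 28.8 and 24.9 FPKM in Sertoli (log2 fold change -1.55, SE 0.17, adjusted p = 1.22e-06), and Hoxd3, at 4.51, 2.84 and 4.64 FPKM in Sertoli (log2 fold change -1.35, SE 0.18, adjusted p = 8.57e-06). For both, the 3 Leydig libraries lay above the 3 Sertoli libraries. Hoxb9 was called higher in Sertoli without the second Sertoli library (log2 fold change 1.46) and without the second Leydig library (1.23). Fibroblast markers summed to 2589 to 3172 FPKM in Leydig, 175 to 276 in PTM and 175 to 188 in Sertoli. Their part in the HoxD difference was not tested.

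**Figure D4:**
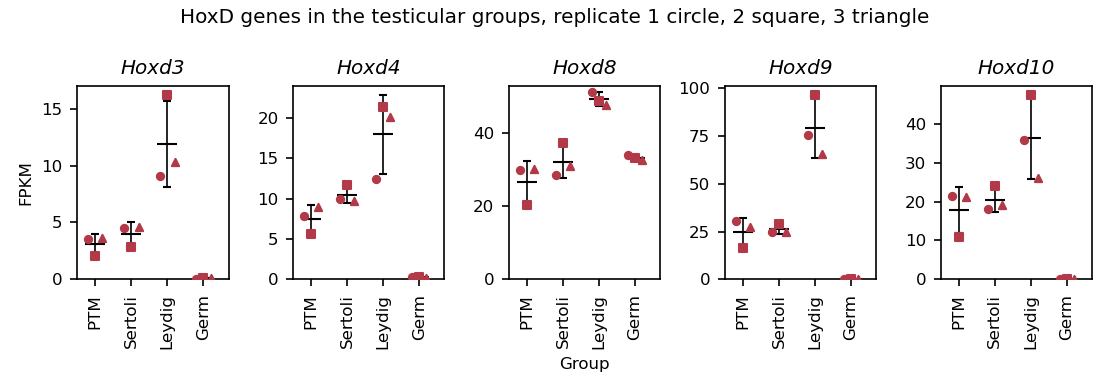
FPKM (vertical axis) of the 5 detected HoxD genes in the 4 testicular groups (horizontal axis). Each marker is a library, with shape by replicate number, and bars are mean and SD of 3 libraries. Leydig is highest for each gene, the second PTM library is the lowest of the PTM libraries, and Hoxd8 is the one of the 5 that exceeds 1 FPKM in Germ.

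Germ cells used few Hox genes. Hoxa4 made up 74.9% of their Hox FPKM. This gene, long known from mouse meiotic and post-meiotic germ cells, was at 148, 124 and 137 FPKM in the Germ libraries. It was at 0.39, 0.14 and 0.28 in PTM, 0.25, 0.21 and 0.18 in Sertoli, 0.24, 0.4 and 0.26 in Leydig, 5.35, 5.34 and 4.92 in VSMC, 5.12, 5.17 and 4.44 in ISMC and 4.32, 4.19 and 5.5 in TSMC. Every Germ library stood above every other library, and the smooth muscle libraries stood above the testicular somatic ones. The order of group means was Germ, VSMC, ISMC, TSMC, Leydig, PTM and Sertoli, in which the smooth muscle groups overlapped one another, as did the 3 testicular somatic groups. Hoxa3, which acts in the thymus and parathyroid, was at 7.73, 6.22 and 7.95 FPKM in Germ, and its annotated span holds Hoxa4, Hoxa5 and Hoxa6 on the same strand, so that its share of their reads is uncertain.

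In PTM against Germ, 10 of the 28 tested genes were higher in PTM and 2 lower, where 42.9% of all tested genes were called higher and 27.6% lower (70.5% in all). The lower ones were Hoxa4 (log2 fold change -6.76, SE 0.1, adjusted p = 1.05e-20) and Hoxa3 (log2 fold change -2.83, SE 0.08, adjusted p = 1.55e-16). The highest fold changes in PTM were those of Hoxd9 (4.4), Hoxd10 (4.08), Hoxc6 (3.56), Hoxd4 (2.76), Hoxc8 (2.56), Hoxd3 (1.89), Hoxc10 (1.89) and Hoxc4 (1.53). Hoxd8 was at 34, 33.2 and 32.8 FPKM in Germ, above PTM at 29.9, 20.4 and 30.1, and was not called (log2 fold change -0.32, SE 0.13, adjusted p = 0.0305), while Hoxd9 and Hoxd10, on its 5′ side, did not exceed 0.31 FPKM in Germ. Hoxb4 gained a call without the second (1.06) or the third (1.02) PTM library, and without the first PTM library Hoxb9 lost its call (0.98). The split moved with the scaling. It was 9 higher and 4 lower after quantile normalization and 5 higher and 8 lower after median log-ratio scaling. The median of all genes shifted by -0.29 and -1.01 with these scalings. The shares of all tested genes called after them are not given, so that these splits cannot be set against other genes. Under median scaling Hoxb2 (0.23), Hoxb9 (0.1), Hoxc4 (0.52), Hoxd3 (0.89) and Hoxc10 (0.88) lost their calls and Hoxd8 was called lower in PTM (-1.33).

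In paralogues 9 and 4, different clusters supplied most of the RNA in different cells. This did not hold for every number. Hoxc6 was the highest paralogue 6 gene both in PTM (mean 11.5 FPKM) and in VSMC (mean 31 FPKM). For paralogue 9, Hoxd9 was the highest in PTM at 24.7 ± 7.47 FPKM, beside 2.2 ± 0.77 FPKM for Hoxc9, 1.37 ± 0.39 FPKM for Hoxb9 and 0.12 ± 0.0379 FPKM for Hoxa9. In VSMC, Hoxb9 was the highest at 28.7 ± 0.98 FPKM, and Hoxa9 reached 3.06 ± 0.37 FPKM, Hoxc9 2.46 ± 0.35 FPKM and Hoxd9 0.68 ± 0.13 FPKM. For paralogue 4, Hoxd4 was the highest in PTM at 7.5 ± 1.68 FPKM, Hoxb4 in VSMC at 8.17 ± 0.23 FPKM and in TSMC at 13.9 ± 0.14 FPKM, and Hoxa4 in Germ at 136 ± 11.7 FPKM. These are levels per transcript length.

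**Figure D5:**
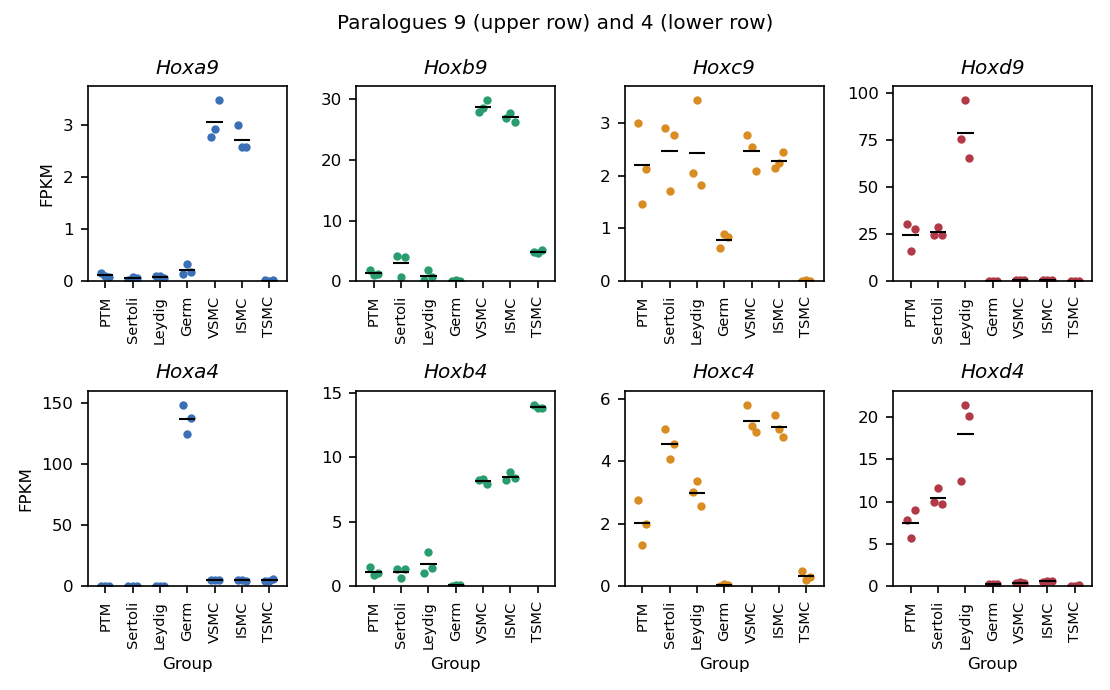
FPKM (vertical axes, each on its own scale) of the paralogue 9 genes in the upper row and the paralogue 4 genes in the lower row, in the 7 groups (horizontal axis). Points are libraries and short lines are means of 3 libraries. Hoxd9 and Hoxd4 are high in the testicular somatic groups, Hoxb9 and Hoxb4 in smooth muscle, and Hoxa4 in Germ.

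The factors that act with or on Hox genes were read from lists chosen with earlier results of these data known. Of 9 TALE cofactors, 1 was higher in PTM than in VSMC, Pknox2, and 1 lower, Meis2, where 12.6% and 6.37% of all tested genes were called. Both were called the same way against ISMC and TSMC. Pknox2 was at 9.52, 6.79 and 9.18 FPKM in PTM and 0.95, 1.2 and 1.05 in VSMC, with no overlap (log2 fold change 2.19, SE 0.17, adjusted p = 5.33e-09). Meis2 was at 1.31, 0.61 and 1.25 FPKM in PTM and 4.14, 4.43 and 4.71 in VSMC, with no overlap (log2 fold change -1.42, SE 0.14, adjusted p = 1.44e-07). Pknox2 was lower in PTM than in Leydig (log2 fold change -1.72, SE 0.17, adjusted p = 2.83e-07). Meis1 was the one cofactor called between smooth muscle groups, where 4.58% of all tested genes were called in VSMC against TSMC. It was at 4.49, 4.69 and 4.2 FPKM in VSMC and 9.79, 10.3 and 11.2 in TSMC (log2 fold change -1.07, SE 0.21, adjusted p = 0.00124). In Germ, Pbx4 was at 108, 99.1 and 112 FPKM, against 1.79, 2.32 and 1.16 in PTM (log2 fold change -5.31, SE 0.15, adjusted p = 2.25e-16). Of the 3 caudal genes, 2 had FPKM values, and neither Cdx1 nor Cdx2 passed the filter.

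Of 20 Polycomb genes, 4 were higher in PTM than in VSMC and 0 lower, among them Ezh1 (1.55), Cbx7 (1.44) and Mtf2 (1.1), where 12.6% and 6.37% of all tested genes were called, and the median over the list was 0.2. Cbx7 is a chromodomain subunit of the first Polycomb complex, Ezh1 is a histone methyltransferase of the second, and Mtf2 is an accessory subunit of the second. The counts were 4 higher and 0 lower against ISMC, where the shares of all tested genes were 10.7% and 7%. They were 3 higher and 0 lower against TSMC, where the shares were 11.3% and 7.2%. In the Trithorax and H3K27 demethylase list of 11 genes, Dpy30, a subunit of H3K4 methyltransferases, was the one called against VSMC, ISMC and TSMC, at 47.9, 48.3 and 52.4 FPKM in PTM and 19.2, 19.1 and 19.5 in VSMC (log2 fold change 1.32, SE 0.13, adjusted p = 9.98e-08). No gene of either list was called between smooth muscle groups. Of all tested genes, 0.831% were called in VSMC against ISMC, 4.58% in VSMC against TSMC and 4.17% in ISMC against TSMC.

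Of 15 retinoic acid genes, 12 were tested, and 3 were higher in PTM than in VSMC and 1 lower, where 12.6% and 6.37% of all tested genes were called. Aldh1a1 and Aldh1a2, which make retinoic acid, were among the higher ones. Aldh1a2 was at 109, 60.2 and 109.7 FPKM in PTM, 2.58, 2.46 and 2.26 in VSMC and 13.9, 14.5 and 14.9 in TSMC, with no overlap between the groups (log2 fold change 4.72, SE 0.42, adjusted p = 4.31e-08 against VSMC). The lower one was the receptor Rarg (log2 fold change -1.45, SE 0.14, adjusted p = 9.67e-08). Between VSMC and TSMC, 1 was higher in VSMC, Cyp26b1, which degrades retinoic acid (log2 fold change 1.83, SE 0.24, adjusted p = 2.29e-05), and 3 were lower, among them Aldh1a2 (log2 fold change -2.17, SE 0.42, adjusted p = 0.0012), where 2.1% of all tested genes were called higher and 2.48% lower.

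The genes that flank the clusters were read from a list of 6, of which 4 were tested. Mtx2, a mitochondrial gene beside HoxD, was at 57.7, 62.9 and 63.5 FPKM in PTM, 23.8, 22.1 and 22.9 in VSMC and 24.9, 23.6 and 23.9 in TSMC, and was called higher in PTM (log2 fold change 1.38, SE 0.1, adjusted p = 4.00e-09 against VSMC). In every VSMC and TSMC library it was above 20 FPKM, where the summed HoxD level was at most 3.22 FPKM. Skap2, beside HoxA, was at 17.9, 24.2 and 17.9 FPKM in PTM and 36, 37.1 and 36.6 in VSMC, where Hoxa5 had a log2 fold change of -4.16, and it was not called (log2 fold change -0.85, SE 0.16, adjusted p = 1.45e-04). Hibadh, also beside HoxA, was not called either (log2 fold change 0.68, SE 0.08, adjusted p = 7.84e-07). Skap1, beside HoxB, was at 0.11, 0.03 and 0.03 FPKM in PTM and 0.94, 0.8 and 0.88 in VSMC, with no overlap, and was lower in PTM by less than the minimum fold change (log2 fold change -0.83, SE 0.07, adjusted p = 2.63e-08). Evx1 and Evx2, the homeobox genes at the 5′ ends of HoxA and HoxD, did not exceed 0.05 FPKM in any library.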

How the data were processed

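The authors deposited FPKM values per gene and library, with the longest transcript length of each gene as another column. HISAT2 2.0.4, Bowtie2 2.2.5, RSEM 1.2.12 and mm10 are named in the submitters' processing notes, without their roles, and strandedness is not given in the sources used here. The labels name no batch. Of 22135 genes, 2850 had no FPKM values. One further FPKM column (1 in number), which belongs to no sample of the series, was not used.

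All 21 libraries were fitted in 1 model of 7 group means with limma 3.58.1 in R 4.3.3 (empirical Bayes with a trend, 14 residual degrees of freedom) on log2(FPKM + 1), for 14444 genes with at least 1 FPKM in 3 libraries. This scale understates the fold changes of low genes. Genes were called at a Benjamini-Hochberg adjusted p below 0.05 and a log2 fold change of 1 or more in either direction, in 10 comparisons. The fit was tested on simulated data. The depth was inferred from low FPKM values of transcripts of 800 to 1500 bases, of which 86.2% to 93.7% fell within 0.2 of a whole number of fragments, where chance gives 40%.

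In each comparison up to 8 called members per direction, those with the largest absolute fold change, were named. The members and lists were chosen with earlier results of these data known. Same-numbered PTM and Sertoli libraries deviated together from their group means (r = 0.227, 0.25 and 0.103). For Sertoli and Leydig the values were negative (r = -0.266, -0.375 and -0.072). Libraries of unlike number were not compared, so that these values do not establish a pairing. The reported fit holds no replicate term, and a replicate block was fitted as an alternative. Alternatives were the pseudocount, the filter, 2 scalings, the libraries fitted, the replicate block, the minimum fold change and leaving out each library. Sequences came from GENCODE vM21 and RefSeq. Some results are not reported here.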

Additional observations from a re-analysis of the deposited data

How the results depend on the processing

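Of 95 counts under alternatives that dropped no library of the groups compared, 84 were within 1.5 times the reported count and 11 were not. With a pseudocount of 0.1, 5 Hox genes were called in PTM against Sertoli, 21 in PTM against Germ, 1 in VSMC against ISMC and 6 in Sertoli against Leydig. With no minimum fold change these were 10 in PTM against Sertoli, 8 in PTM against Leydig, 22 in PTM against Germ and 13 in Sertoli against Leydig. Quantile normalization gave 1 gene in PTM against Sertoli, Hoxc4, and leaving out the second PTM and second Sertoli libraries together, chosen after seeing the data, gave 1, Hoxb9. At a detection threshold of 2 FPKM, 7 genes were detected in PTM, and at 0.5 FPKM, 6 in Germ. The cause of these shifts was not tested. A share of all tested genes under these settings is given only for PTM against Sertoli without the minimum fold change (29%). The counts therefore do not show whether Hox genes moved more than other genes. When 1 library was left out, the number called ranged from 0 to 2 in PTM against Sertoli, 2 to 4 against Leydig, 11 to 13 against Germ, 26 to 27 against VSMC, 25 to 27 against ISMC, 22 to 24 against TSMC and 2 to 3 in Sertoli against Leydig. It was 0 in VSMC against ISMC and 14 in VSMC and in ISMC against TSMC each time. The number detected ranged from 12 to 13 in PTM, 11 to 15 in Sertoli (15 without the second library) and 12 to 14 in Leydig, and was fixed in the other groups. With the replicate block, 0 genes were called in PTM against Sertoli, and no call of a Hox gene differed in any of the 10 comparisons. Of 1722 values of the called Hox genes under alternatives, from 123 pairs of a gene and a comparison, 1702 kept direction and call, 20 lost the call and 0 reversed. Hoxd10 in PTM against Leydig lost its call when only these 2 groups were fitted (adjusted p = 0.072 in limma). At the inferred depth, values near 0.05 FPKM rest on a few fragments, and differences there were not detectable.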
